A study of Mus musculus with 6 samples.

Results

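The genes described here encode the machinery of autophagy and of the lysosome. The list of 38 was drawn up by function: kinases that start autophagy, enzymes that conjugate and process the ATG8 proteins, the ATG8 proteins themselves, cargo receptors, phosphoinositide readers, a pair of transcription factors, and proteins of the lysosome. Each gene was read from its own probe set with the highest mean log2 signal over 6 liver arrays. A probe set is the group of oligonucleotides on an Affymetrix array that is read as 1 value, for 1 transcript or several. Of the 38 genes, 37 had such a probe set and all 37 passed the filter on dim values, out of 13027 genes tested and 18193 measured. The remaining gene, Optn, is not analysed here.

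Liver RNA came from 3 conditional Keap1 knockout mice (Alb-Cre, Keap1 flox/-, carrying a floxed and a null allele, numbered 3, 4 and 5) and from 3 genetic controls (Alb-Cre, Keap1 flox/+, carrying a floxed and a wild-type allele, numbered 1, 2 and 3). All 6 were males aged 9 weeks that had received only vehicle (10% DMSO, 10% Cremophor-EL and 80% PBS), with 1 mouse per array. The design asks which liver genes depend on KEAP1. Alb-Cre acts in hepatocytes, and the controls' hepatocytes keep 1 wild-type allele. Liver cells of a knockout in which Cre does not act keep an unrecombined floxed allele beside the null one. In such bulk liver RNA, fewer cells of a type and less RNA per cell cannot be told apart.

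Autophagy encloses cytoplasm in a double membrane and delivers it to the lysosome, whose acid hydrolases break it down. ULK1 starts the process, a lipid kinase complex with Beclin 1 marks the membrane, and ATG8 proteins such as LC3 are attached to it and hold the cargo receptors. The pathway touches KEAP1 through the cargo receptor p62, encoded by Sqstm1, which binds KEAP1, and p62 is itself encoded by a target of the transcription factor NRF2 that KEAP1 restrains. In the liver, autophagy is known for turning over mitochondria, lipid droplets and protein aggregates.

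The knockout label was checked on Keap1 and on a classical NRF2 target. Keap1 had a signal of 326, 151 and 214 in knockouts 3, 4 and 5, against 786, 843 and 700 in controls 1, 2 and 3 (log2 difference -1.74, standard error 0.24, limma adjusted p = 0.0118). A second Keap1 probe set had 336, 446 and 206 in the knockouts, against 477, 564 and 541 in the controls, also without overlap, and did not pass (-0.71, adjusted p = 0.223 over all probe sets). Where either lies relative to the floxed segment was not examined here. The quinone reductase gene Nqo1 was 4.96-fold higher (adjusted p = 0.00019). Across genes, which are no independent replicates, log2 signals of mice of the same group correlated at 0.971 to 0.977, and those of a knockout with a control at 0.960 to 0.965. Markers of other cell types were measured beside the members. Of 12 Kupffer cell and macrophage markers 0 passed the threshold (limma, 2 at an unadjusted p under 0.05) and none was at 0. Of these 12, 8 lay above the controls and 4 below, and the groups did not overlap in 1, Marco. Marco had 770, 492 and 387 in the knockouts, against 298, 98.6 and 225 in the controls (log2 difference 1.40). The summed signal of the 12 markers was 17275 to 22666 in the knockouts and 12534 to 21806 in the controls. For 8 hepatocyte markers, of which 0 passed (3 at an unadjusted p under 0.05), it was 179311 to 201929 in the knockouts and 173118 to 194412 in the controls. Of these 8, 7 lay above the controls, and the groups did not overlap in 6, 5 higher and 1 lower (Fabp1, -0.52). For comparison with the marker lists, 47.2% of all genes tested lay above the controls. The groups of 21.3% did not overlap, 10.3% higher and 10.9% lower. For 6 markers of sinusoidal endothelium, of which 0 passed (1 at an unadjusted p under 0.05), it was 5469 to 5834 in the knockouts and 5330 to 5417 in the controls, without overlap. Without Lyve1 (739, 705 and 1394 in the knockouts, against 238, 332 and 582 in the controls) the sums, taken after the data were seen, overlapped, at 4440 to 5123 in the knockouts and 4748 to 5106 in the controls, and 4 of the 6 markers lay below the controls. The sums of leukocyte, stellate cell and cholangiocyte markers overlapped between the groups. The part of these cell types in the differences below was not tested.

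Promoters are shown first for a few members, picked for their differences or for sequence motifs, so they do not represent the list. The windows run from 250 bases before to 50 bases after the annotated transcription start, from RefSeq on build GRCm38.p6, and 31 of the 38 genes had an entry, with 37 promoters. Both strands were searched for the core of the antioxidant response element, TGACNNNGC, through which NRF2 acts with a small MAF partner, and for CACGTG, the E-box at the centre of the element bound by TFEB, TFE3 and other factors. Matches to the different motifs could overlap, but none did in the promoters printed. Capitals mark the matches. Hexa is shown as the member that rose, Map1lc3b and Ctsd as members whose groups did not overlap and that hold an antioxidant response element core, Lamp1 for its E-boxes, and Ulk1 as the member that fell.
Hexa, chr9:59539290-59539589, plus strand: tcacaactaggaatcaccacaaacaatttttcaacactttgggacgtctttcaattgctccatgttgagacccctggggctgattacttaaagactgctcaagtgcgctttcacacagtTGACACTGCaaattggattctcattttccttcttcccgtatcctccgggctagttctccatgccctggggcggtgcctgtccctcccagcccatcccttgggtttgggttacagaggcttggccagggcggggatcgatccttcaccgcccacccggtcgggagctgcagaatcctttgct
Map1lc3b, chr8:121590188-121590487, plus strand: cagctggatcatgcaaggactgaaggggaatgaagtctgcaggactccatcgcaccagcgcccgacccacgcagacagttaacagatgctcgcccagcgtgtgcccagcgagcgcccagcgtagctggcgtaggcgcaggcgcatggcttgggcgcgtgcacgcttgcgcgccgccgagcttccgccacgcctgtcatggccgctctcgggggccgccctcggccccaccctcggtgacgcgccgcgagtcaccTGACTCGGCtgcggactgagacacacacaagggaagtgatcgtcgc
Ctsd, chr7:142387778-142388077, minus strand: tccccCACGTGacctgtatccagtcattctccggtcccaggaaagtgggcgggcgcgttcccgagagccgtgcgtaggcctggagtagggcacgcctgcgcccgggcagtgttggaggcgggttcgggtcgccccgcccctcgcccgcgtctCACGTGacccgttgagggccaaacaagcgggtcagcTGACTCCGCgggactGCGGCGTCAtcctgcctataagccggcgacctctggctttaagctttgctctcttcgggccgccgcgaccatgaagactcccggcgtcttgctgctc
Lamp1, chr8:13158911-13159210, plus strand: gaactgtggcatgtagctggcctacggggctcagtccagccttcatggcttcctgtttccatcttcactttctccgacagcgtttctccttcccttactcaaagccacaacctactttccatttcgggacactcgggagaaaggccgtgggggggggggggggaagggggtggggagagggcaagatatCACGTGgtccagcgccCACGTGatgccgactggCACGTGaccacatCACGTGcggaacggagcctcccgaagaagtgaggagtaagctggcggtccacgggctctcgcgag
Ulk1, chr5:110810032-110810331, minus strand: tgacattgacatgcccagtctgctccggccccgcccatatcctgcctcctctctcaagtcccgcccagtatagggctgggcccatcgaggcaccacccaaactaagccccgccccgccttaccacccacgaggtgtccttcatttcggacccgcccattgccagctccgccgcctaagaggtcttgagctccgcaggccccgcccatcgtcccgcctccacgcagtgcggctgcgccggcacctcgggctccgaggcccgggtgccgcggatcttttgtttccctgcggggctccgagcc

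The antioxidant core was found in 5 of the 37 promoters, or 13.5%, against 14.1% of the promoters of all genes tested and 12.4% of all promoters of this length. Its holders were Ulk2, Map1lc3b, Ctsd, Ctsz and Hexa, of which 4 lay above the controls and 1 below, with Hexa past the threshold. Their log2 differences were -0.16, 0.51, 0.30, 0.03 and 0.87 in that order, so Ctsz was almost level with its controls. Of all genes tested, 47.2% lay above. CACGTG was found in 8 of the 37 promoters, or 21.6%, against 9.49% for genes tested and 7.15% for all. The 8 genes were Atg3, Atg5, Atg7, Lamp1, Ctsa, Ctsd, Ctsl and Gla. Of these, 6 lay above the controls and 2 below, and 0 passed the threshold (limma), with log2 differences from -0.22 to 0.46. Gla, counted above, differed by only 0.001. In Lamp1 the E-box occurred 4 times, and Ctsd held both motifs. The Ulk1 window held neither motif, nor did the windows of the NRF2 targets Nqo1 and Sqstm1. Among members whose groups did not overlap, Tfeb, Gabarap, Gabarapl2, Nbr1 and Atg4d also held neither in their windows, which are not printed. These are matches of letters in short windows, and binding was not measured.

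The 37 members as a whole lay close to their controls. Their median log2 difference, knockout minus control, was 0.01, against -0.02 over all genes tested, with 20 members above and 17 below, where 47.2% of all genes tested lay above. In 28 of 37, or 75.7%, the difference was under 1.2-fold, against 67.5% of all genes tested. It reached 1.5-fold in 3 members (Hexa, Ulk1 and Tfeb), or 8.11%, and in 8.11% of all genes tested. The threshold was an adjusted p of 0.05 (limma, Benjamini-Hochberg over all 13027 genes). Hexa rose and Ulk1 fell, so 2 of 37 passed, where 1.98% of all genes tested did so, 1.04% higher and 0.944% lower. At an unadjusted p under 0.05 there were 6 members higher and 3 lower, against 7.45% and 7.76% of all genes tested. For the other members, the test resolved no difference from the spread between 3 mice per group.

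The groups of 13 members, or 35.1%, did not overlap, against 21.3% of all genes tested. For 9 of these, Hexa, Map1lc3b, Map1lc3a, Gabarap, Gabarapl2, Ctsl, Ctsd, Nbr1 and Atg5, every knockout lay above every control, as in 10.3% of all genes tested. For the other 4, Ulk1, Tfeb, Atg4d and Pik3c3, every knockout lay below every control, as in 10.9% of all genes tested. By role, the ATG8 family stood above its controls, the initiation genes and ATG4 proteases mostly below, and the conjugation enzymes and most hydrolases on both sides.

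**Figure D1:**
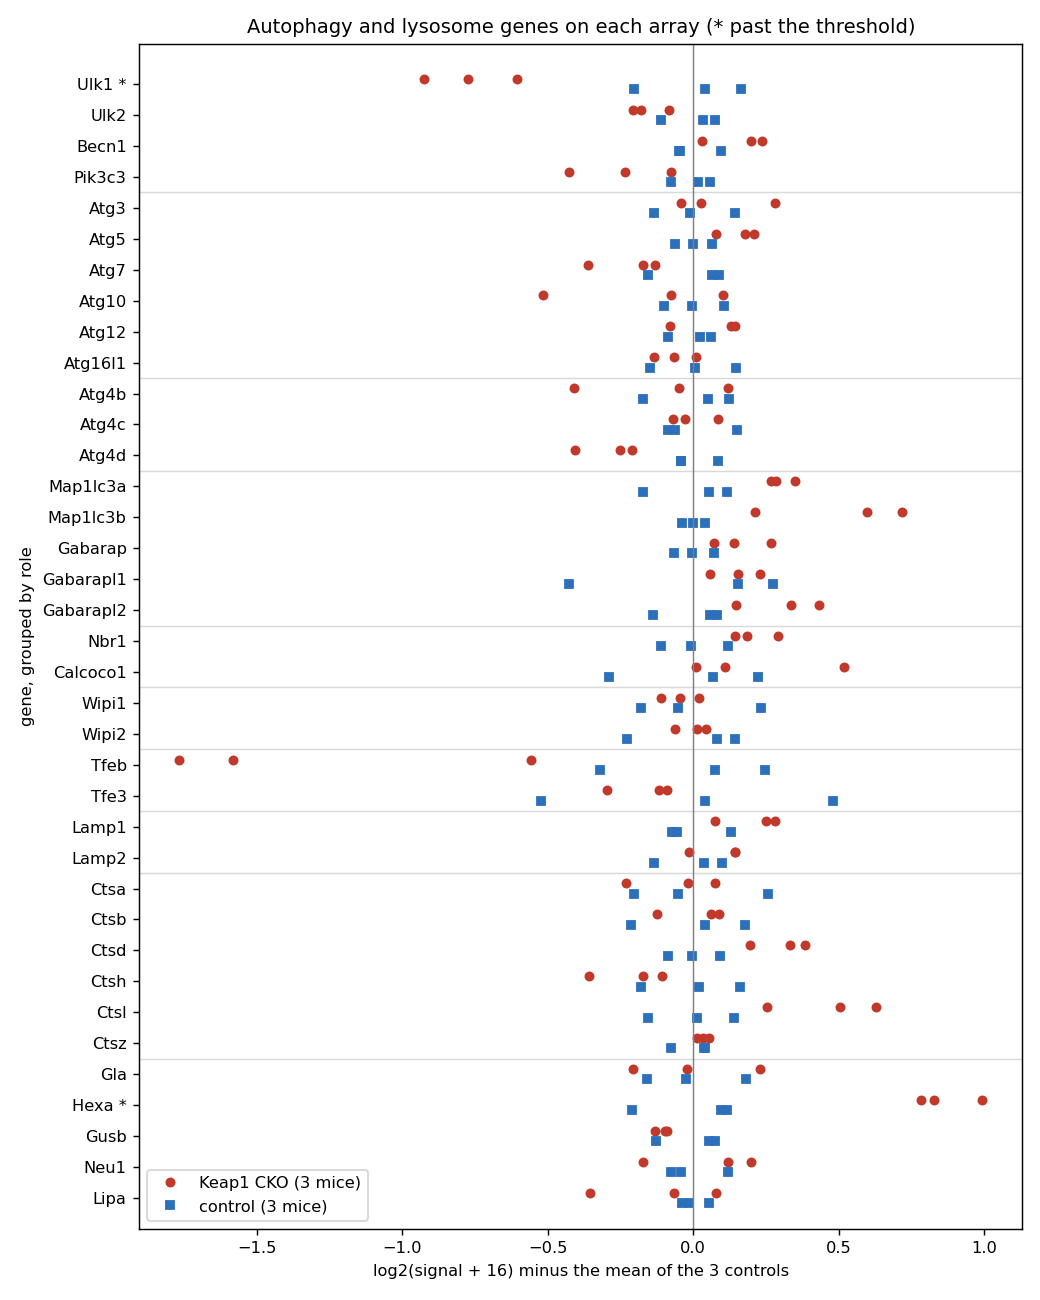
Signal of the 37 members on each array, as log2(signal + 16) minus the mean of the 3 controls; circles are Keap1 CKO mice, squares are controls, and grey lines part the roles. Most members lie within 0.5 of the controls, while the knockouts of Hexa lie to the right and those of Ulk1 and Tfeb to the left of every control.

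Among the members that start autophagy, the kinase gene Ulk1 fell. ULK1 is the kinase that receives the nutrient signals of mTORC1 and AMPK. Its signal was 1122, 997 and 896 in knockouts 3, 4 and 5, against 1923, 1488 and 1762 in controls 1, 2 and 3. The groups did not overlap, and the knockouts stood at 58.3% of control (log2 difference -0.77, standard error 0.13, adjusted p = 0.0249). A further, dimmer probe set of Ulk1 was also lower, by -0.56, without passing (adjusted p = 0.549 over all probe sets), with signals of 386, 146 and 262 in the knockouts and 463, 212 and 513 in the controls, which overlap. The call held without control 2 (adjusted p = 0.0297) and was lost without knockouts 3, 4 and 5 (0.0535, 0.0656 and 0.0775) and without controls 1 and 3 (0.0855 and 0.0713). Other settings that lost it were the mean over probe sets (0.263), median centring (0.0852) and a fit with no variance trend (0.0910), while its direction was the same throughout.

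The related kinase gene Ulk2 averaged 1783 ± 82.0 in knockout livers and 1992 ± 133 in control livers (SD, n = 3 each), a log2 difference of -0.16 that did not pass (adjusted p = 0.488). Pik3c3, which encodes the lipid kinase VPS34, had 376, 432 and 484 in the knockouts, against 533, 517 and 484 in the controls (log2 difference -0.25, adjusted p = 0.442). Its highest knockout and lowest control were almost equal, at 483.5 and 484.3. Becn1, for the VPS34 partner Beclin 1, had a log2 difference of 0.16 (adjusted p = 0.514). Thus 1 of the 4 genes of this group passed.

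In the conjugation systems, which attach ATG8 proteins to lipid and ATG12 to ATG5, 0 of 6 genes passed (limma, 0 also at an unadjusted p under 0.05), 3 lay above and 3 below the controls, and the median was -0.00. Atg7, the activating enzyme of both systems, had the largest difference of the group, with 756, 889 and 863 in the knockouts and 1020, 874 and 1038 in the controls. Knockout 4 exceeded control 2, and the log2 difference of -0.22 did not pass (adjusted p = 0.430). A further Atg7 probe set differed the other way, by 0.24. Atg5, the partner of ATG12, had 1940, 2126 and 2081 in the knockouts and 1760, 1921 and 1834 in the controls (0.16, adjusted p = 0.472). Its groups were barely separate, with knockout 3 just above control 2. The transfer enzymes Atg3 and Atg10 and the complex members Atg12 and Atg16l1 differed by 0.09, -0.16, 0.06 and -0.06.

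The ATG4 proteases trim ATG8 proteins before conjugation and free them afterwards. All 3 had lower means in the knockouts and 0 passed (limma, 1 at an unadjusted p under 0.05). Atg4d had 805, 723 and 829 in the knockouts, against 934, 935 and 1021 in the controls. The groups did not overlap, and the log2 difference was -0.29 (standard error 0.11, adjusted p = 0.249). Atg4b and Atg4c differed by -0.11 and -0.00.

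All 5 members of the ATG8 family had higher means in the knockouts, with groups that did not overlap in 4. Of all genes tested, 47.2% lay above the controls and 10.3% lay above them without overlap. Among the hepatocyte markers, 7 of 8 also lay above the controls, with 5 of them separate, and their part in the ATG8 values was not tested. None of the 5 ATG8 genes passed the threshold over all genes (limma, 3 at an unadjusted p under 0.05), and their median log2 difference was 0.30. Map1lc3b, which encodes LC3B, the usual marker protein of autophagosomes, had 7873, 5539 and 7235 in knockouts 3, 4 and 5, against 4779, 4914 and 4649 in the controls. Knockout 4 lay nearer to the controls than the other knockouts did, and the SD was 1206 over the 3 knockouts and 132 over the 3 controls. The log2 difference was 0.51 (standard error 0.13, adjusted p = 0.102), and without knockout 4 it was 0.66 with a call (adjusted p = 0.0270). Without any other 1 array Map1lc3b did not pass (limma adjusted p = 0.200 to 0.307). Its further probe sets above the filter differed by 0.36 and 0.38.

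Map1lc3a, for LC3A, had 6070, 6144 and 6425 in the knockouts, against 4477, 5242 and 5474 in the controls (0.30, standard error 0.10, adjusted p = 0.200). Gabarapl2, also known as GATE-16, had 3174, 2971 and 2602 in the knockouts, against 2486, 2447 and 2135 in the controls (0.30, standard error 0.11, adjusted p = 0.233). Gabarap had 9486, 8689 and 8290 in the knockouts, against 7854, 7523 and 8284 in the controls (0.16, adjusted p = 0.455). Its lowest knockout and highest control were nearly level. Gabarapl1 overlapped, with 6244, 7047 and 6680 in the knockouts and 6682, 7267 and 4462 in the controls (0.15, adjusted p = 0.742). Without control 3 its difference was -0.07, so the count of 5 above the controls became 4. In the other 17 settings of processing or left-out arrays, all 5 stayed above the controls. Probe sets of this family can be shared in part by close relatives, and those used for Map1lc3a and Gabarapl1 carry a suffix that marks possible cross-hybridisation. A second Map1lc3a probe set without such a suffix differed by 0.14, with overlapping groups.

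**Figure D2:**
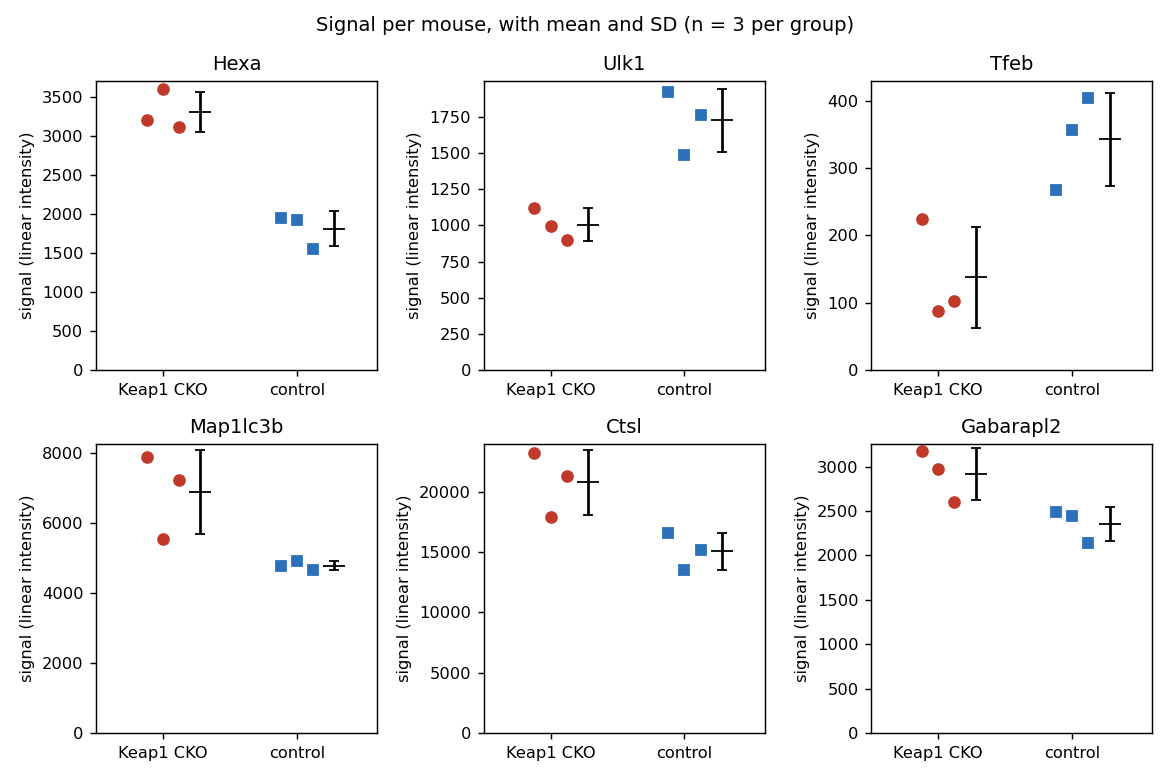
Signal of 6 members in each mouse on a linear axis from 0, with the mean and SD of each group (n = 3). Hexa and Ulk1 passed the threshold; in Map1lc3b knockout 4, at 5539, lies nearest to the controls, and in Tfeb knockout 3, at 224, does.

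Of the cargo receptors, Nbr1 had 6599, 7309 and 6795 in the knockouts and 5938, 6488 and 5532 in the controls (log2 difference 0.21, adjusted p = 0.351), with groups that did not overlap. Calcoco1, a receptor for endoplasmic reticulum, differed by 0.21 (adjusted p = 0.656), with overlapping groups, and its sign turned in the mean over probe sets (-0.17). Sqstm1, which encodes p62, is no member of the list and was read for comparison. It had 15277, 13139 and 12389 in the knockouts, against 10813, 11192 and 10525 in the controls, or 1.25-fold, without passing (log2 difference 0.32, standard error 0.10, adjusted p = 0.177). The phosphoinositide readers Wipi1 and Wipi2, which bind the lipid that VPS34 makes, differed by -0.05 and -0.00, and 0 of the 2 passed (limma, 0 also at an unadjusted p under 0.05). Their further probe sets mostly lay above the controls, 3 of 4 for Wipi1 and both for Wipi2, up to 0.44 and 0.34, so the probe sets of these genes give no single direction.

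Tfeb had the largest difference of all members but did not pass. TFEB is the transcription factor that drives lysosomal and autophagy genes when nutrients are scarce. Its signal was 224, 88.1 and 102 in knockouts 3, 4 and 5, against 267, 357 and 403 in controls 1, 2 and 3. Every knockout lay below every control, knockout 3 being close to control 1, and the knockouts stood at 40.4% of control. The log2 difference was -1.30 with a standard error of 0.32 (adjusted p = 0.0899). Without knockout 3 it was -1.67 with a call (adjusted p = 0.0267), and it also passed when arrays were scaled by their hybridisation controls (-1.43, adjusted p = 0.0428). It did not pass in the other settings. The adjusted p (limma) was 0.136 to 0.216 without any other 1 array, and 0.163 without the variance trend. Tfeb had 1 probe set above the filter, a dim one, so the size depends on the offset, with -1.41 at an offset of 1 and -1.05 at 64. Tfe3, its close relative, differed by -0.17 (adjusted p = 0.786), with controls spread from 454 to 927.

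**Figure D3:**
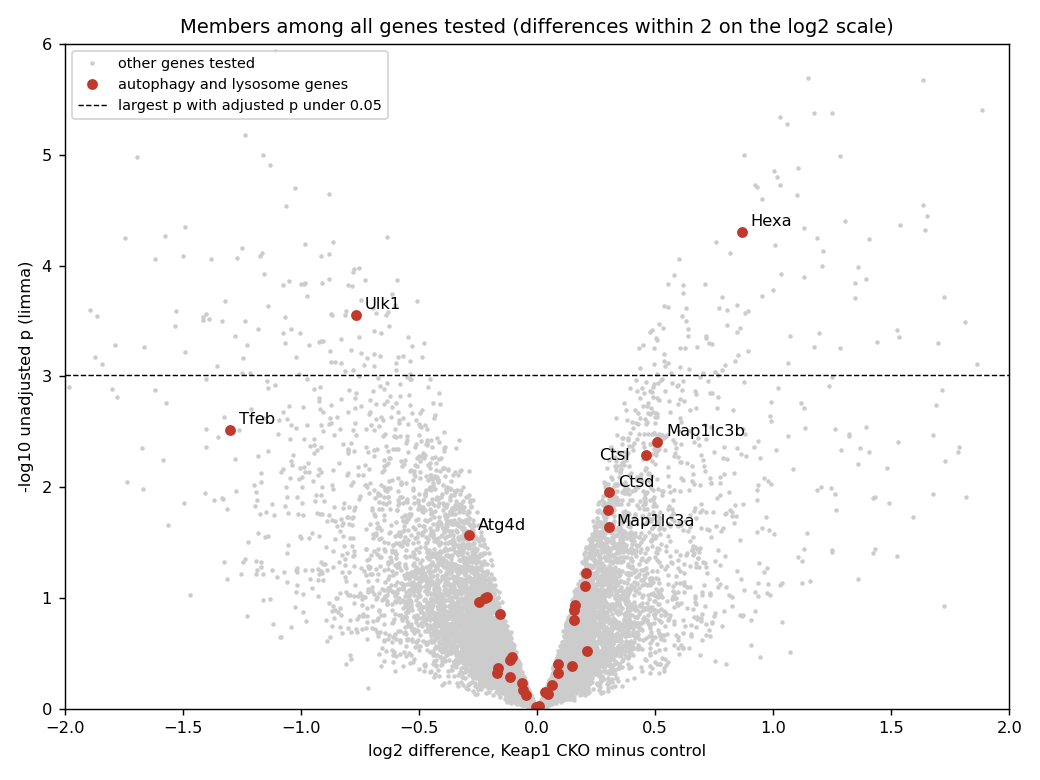
Log2 difference (Keap1 CKO minus control) against -log10 of the unadjusted limma p for the members (red) and all other genes tested (grey); 34 genes lie beyond 2 on the horizontal axis and 5 more above 6 on the vertical axis. Hexa and Ulk1 lie above the dashed line of the threshold, and Tfeb, Map1lc3b and Ctsl are the next members below it.

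At the lysosomal membrane, Lamp1 and Lamp2, which encode its main glycoproteins, had overlapping groups and differed by 0.20 and 0.09 (adjusted p = 0.392 and 0.729). Of the further Lamp2 probe sets 1 lay above and 2 below the controls, and the used one turned its sign in 3 of 18 other settings. Lamp1 stayed above its controls in all 18.

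Of the 6 cathepsin genes, Ctsa included, 0 passed (limma, 2 at an unadjusted p under 0.05). Ctsl, a cysteine protease of the lysosome, had 23179, 17868 and 21267 in the knockouts, against 16543, 13484 and 15141 in the controls. All knockouts lay above all controls, and the log2 difference was 0.46 (standard error 0.12, adjusted p = 0.114). Ctsd, an aspartic protease, had 7126, 6867 and 6248 in the knockouts, against 5820, 5438 and 5134 in the controls (0.30, standard error 0.09, adjusted p = 0.171), also without overlap. The other cysteine proteases differed little, Ctsb by 0.01, Ctsz by 0.03 and Ctsh by -0.21. Ctsb averaged 12650 ± 998 in knockout livers and 12633 ± 1706 in control livers (SD, n = 3 each). Ctsa, the protective protein of neuraminidase and beta-galactosidase, differed by -0.06. In the knockouts the summed signal of these 6 genes was 52798 to 58822, against 45250 to 52933 in the controls.

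Hexa, which encodes the alpha subunit of the ganglioside-degrading enzyme beta-hexosaminidase, rose. Its signal was 3212, 3608 and 3117 in knockouts 3, 4 and 5, against 1958, 1929 and 1558 in controls 1, 2 and 3. Every knockout was well above every control, with means of 3312 ± 261 in knockout livers and 1815 ± 223 in control livers (SD, n = 3 each). The fold was 1.82 and the log2 difference 0.87 ± 0.12 (standard error, adjusted p = 0.0111), the 58th lowest p among 13027 genes. The call held without any 1 array (adjusted p = 0.0239 to 0.0405, differences 0.76 to 0.93) and in 11 of 12 other settings, and was lost without the variance trend (0.0613). The other hydrolases of this role did not pass. The alpha-galactosidase gene Gla differed by 0.00, the beta-glucuronidase gene Gusb by -0.11, the sialidase gene Neu1 by 0.05 and the acid lipase gene Lipa by -0.11, each with overlapping groups. Both further Lipa probe sets were lower, by -0.30 and -0.34, without passing.

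**Figure D4:**
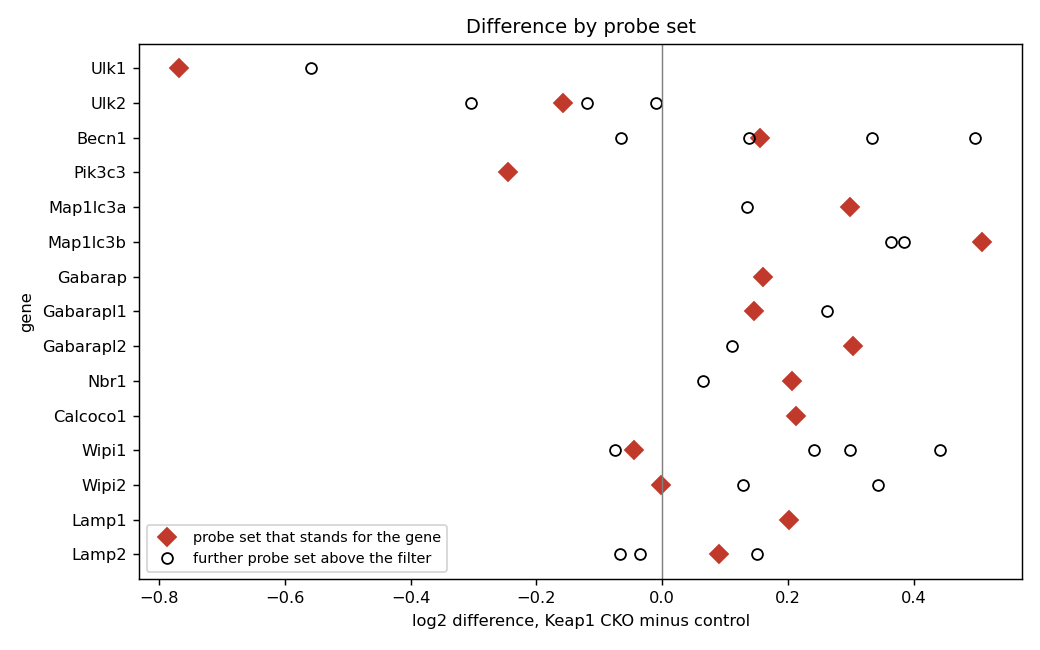
Log2 difference of each probe set above the filter for members with roles in initiation, in the ATG8 family, as receptors or readers, and at the lysosomal membrane; red diamonds are the probe sets that stand for the gene. All probe sets of the ATG8 family lie above 0, both of Ulk1 lie below it, and those of Becn1, Wipi1, Wipi2 and Lamp2 fall on both sides or at 0.

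Over all members, 25 had at least 1 further probe set above the filter, 42 in all, and 0 of these 42 passed (limma, over all probe sets). In 15 of the 25 genes every further probe set had the sign of the used one, and in 10 at least 1 had the other. Genes of the first kind included Map1lc3b, Map1lc3a, Gabarapl1, Gabarapl2, Ulk1, Ulk2, Ctsl, Nbr1 and Atg5. The same sign did not mean separate groups. In the further probe sets of Map1lc3a, Gabarapl1, Gabarapl2, Ulk1, Ctsl, Nbr1 and Atg5 the groups overlapped. Those of Map1lc3b were separate, and those of Ulk2 were partly so. Among the members whose groups did not overlap, Hexa, Tfeb, Ctsd, Atg4d, Gabarap and Pik3c3 rest on a single probe set above the filter each. The same holds for Lamp1, Gla, Calcoco1, Tfe3, Atg10 and Atg16l1, whose groups overlapped.

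A further 131 genes of the same pathways were read to place the members, of which 121 were tested. None passed (limma, 10 higher and 9 lower at an unadjusted p under 0.05), and their median was -0.01. Their groups did not overlap in 25, or 20.7%, 13 higher and 12 lower, close to the 21.3% of all genes tested. By absolute difference the first 3 were Ctsk, Arsa and Ambra1. Ctsk, a cathepsin best known in osteoclasts, was dim, with 136, 15.9 and 66.0 in the knockouts and 108, 197 and 183 in the controls (-1.24, adjusted p = 0.307). Arsa, the lysosomal arylsulfatase A, had 933, 1244 and 1206 in the knockouts, against 2275, 1950 and 1513 in the controls, without overlap (-0.75, standard error 0.17, adjusted p = 0.0690). It passed without control 3 (-0.90, adjusted p = 0.0440) and with arrays scaled by their hybridisation controls (-0.88, adjusted p = 0.0394). Ambra1, a Beclin 1 regulator, had 250, 239 and 255 in the knockouts and 355, 395 and 337 in the controls (-0.52, adjusted p = 0.129).

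Among these lists, the 15 subunits and accessory proteins of the V-ATPase, the pump that acidifies the lysosome, had a median of -0.08, with 4 above and 11 below the controls and 13 within 1.2-fold. The 20 genes of mTORC1 and TFEB control, including the Ragulator and Rag GTPase genes, had a median of 0.01. Sorting receptors and adaptors for lysosomal enzymes, 8 genes, had a median of 0.01, with 6 within 1.2-fold. The 31 further hydrolases and cofactors had a median of 0.07 and the 14 further membrane proteins one of -0.05. In none of these lists did a gene pass the threshold (limma, 11 genes at an unadjusted p under 0.05, with 8 more among the 33 further autophagy factors).

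**Figure D5:**
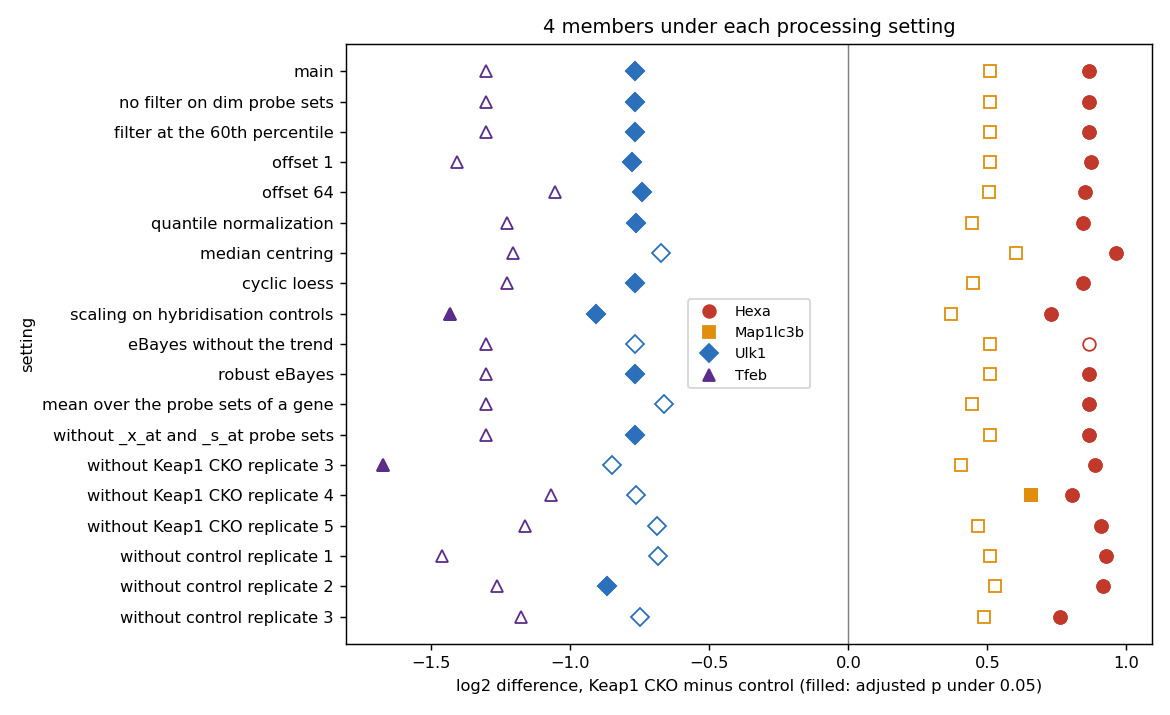
Log2 difference (Keap1 CKO minus control) of 4 members under each processing setting and without each array; filled symbols have an adjusted p under 0.05. Hexa is filled in all but the fit without the variance trend, Ulk1 is filled in the first setting and 10 of the 18 others, and Map1lc3b and Tfeb in 1 and 2 of them.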

How the data were processed

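Per the labels' protocols, biotin-labelled cRNA from total liver RNA was hybridised to Affymetrix arrays. The deposited values are linear array intensity, 1 per probe set and array. Each array had a mean of 500.0 once its dimmest and brightest 2% of probe sets were left out, so the authors had scaled the arrays to a shared target. The software that summarised probes was not given in the sources used here. Genes were named from the platform's probe table, in which 34945 probe sets had 1 symbol, 932 several and 9160 none; only the first were used. Log2(signal + 16) was computed, and fold differences on that scale understate the change of dim genes. Genes were tested if their probe set's mean was at or above the 40th percentile. The test was limma 3.58.1 under R 4.3.3 (eBayes with a variance trend, two-sided). The steps were tested on simulated data. The members and lists were chosen with earlier results of these data known. Every member was described, and its difference was taken under every alternative that tested it. Adjusted p-values under each alternative were listed for fewer genes. These were the genes past the threshold, the largest difference of each role and the 6 largest without overlap. The 3 largest of the further pathway genes, Sqstm1, Keap1 and Nqo1 were added. An exact permutation test of 3 mice against 3 cannot go below p = 0.1. The number of arrays limits the precision.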

Additional observations from a re-analysis of the deposited data

How the results depend on the processing

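No paired analysis was possible because the groups share only the replicate number 3. Over 12 other settings and 6 runs without 1 array, 18 of the 37 members kept the sign of their difference throughout and 19 did not, and 4 members passed in at least 1 of them (Hexa, Ulk1, Tfeb and Map1lc3b). The count of members past the threshold was 0 higher and 0 lower without the variance trend, 0 lower after median centring and in the mean over probe sets, and 2 lower with scaling by the hybridisation controls. Without 1 array it was 1 to 2 higher and 0 to 1 lower. The further pathway genes had 1 higher with a filter at the 60th percentile (Bnip3), 2 lower with hybridisation-control scaling (Arsa and Uvrag), and 0 higher and 0 to 1 lower without 1 array. Over all genes, 135 rose and 123 fell, against 74 lower after median centring (137 higher), 89 higher and 247 lower with hybridisation-control scaling, 49 and 28 without the trend, and 53 to 99 higher and 39 to 83 lower without 1 array. The median member difference was 0.10 after median centring, a setting that shifted all genes' median by 0.09, and -0.13 with hybridisation-control scaling, which shifted it by -0.14. It was 0.021 to 0.070 without 1 array. Calcoco1 turned to -0.17 in the mean over probe sets. Wipi1 turned to 0.049 after median centring, 0.18 in that mean, 0.24 without probe sets that can match several transcripts, and 0.071 without control 3. The cause was not tested.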

Other observations

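Atg4d is a close neighbour of Keap1 on chromosome 9, with 1 protein-coding gene, S1pr5, between them in the RefSeq annotation of GRCm38.p6. The groups differ by design at the Keap1 locus, and whether this bears on the Atg4d values was not tested. Atg4d had 805, 723 and 829 in the knockouts, against 934, 935 and 1021 in the controls, without passing (limma adjusted p = 0.249), and its sign was the same in all 18 other settings. Hexa and Ctsh lie on the same chromosome, with 461 and 681 protein-coding genes between each of them and Keap1.

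Bnip3, a mitophagy receptor gene among the further pathway genes, was named after its values were seen. It had 16826, 16454 and 16903 in the knockouts, against 13022, 12877 and 10829 in the controls (log2 difference 0.45, limma adjusted p = 0.0596).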
